A study of Cavia porcellus with 18 samples.

Results

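Histone H3 monomethylated on lysine 4 (H3K4me1) was mapped in the hippocampus by chromatin immunoprecipitation and sequencing (ChIP-seq), and all 327682 peaks of the deposited H3K4me1 list are described here. They were taken whole, without a filter, from the 395105 regions of the 2 peak lists of the study, the other list being 67423 peaks of RNA polymerase II phosphorylated on serine 5 of its repeated tail (Pol II PS5). The animals were 3 male wild type guinea pigs (Cavia porcellus) of 12 weeks, with no treatment or altered allele named in the labels. Frozen hippocampi were ground, fixed with formaldehyde and sonicated, and each animal gave 1 H3K4me1 ChIP-seq library with the Abcam antibody ab8895. The same animals gave 1 Pol II PS5 library each, 1 library each in which the H3K4me1 precipitate was treated with bisulfite (ChIP-bisulfite), and 6 bisulfite libraries in all of reduced representation bisulfite sequencing (RRBS), which reads DNA methylation near restriction sites. Of these 6, 3 had reads of 50 bases and 3 of 100 bases, and the deposited RRBS values do not separate them.

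H3K4me1 is deposited mainly by the methyltransferases MLL3 and MLL4 (KMT2C and KMT2D). It marks enhancers, both active ones and ones that are primed but not in use, and the flanks of promoters, while the nucleosomes next to an active start site mostly carry the trimethylated form, H3K4me3. The mark alone does not separate an active enhancer from a primed one. A whole hippocampus holds neurons of several kinds, glia and vessel cells, so each peak is a sum over them.

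Every deposited value pools the 3 animals. There is 1 peak list with 1 score per peak, so the value in each animal, a spread between animals and a test over animals could not be obtained, and none of the comparisons below has a p-value. The spread shown in their place is that over the 42 scaffolds with at least 2000 peaks, which hold 209023 of the peaks. Depth per H3K4me1 library was not given in the files used here, and the tissue could not be checked against its marker genes, because the gene identifiers of the files matched no symbol in the table at hand.

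The score column holds 2 scales that cannot be put on 1 axis. A low scale held 177756 peaks (54.2%) with scores of 1.27 to 14.8 and a median of 1.66. A high scale held 149926 peaks (45.8%) with scores of 42 to 3164 and a median of 57.5. No score lay between 14.8 and 42. The last peak below the gap was on scaffold_10 from 20266601 to 20267264, 663 bases wide, and 1490 peaks shared the lowest high score of 42, the first of them on scaffold_0 from 935585 to 937250. All high scores were multiples of 0.5, against 5 scores of the low scale. The submitters' processing notes name both MACS2 and HOMER for these libraries without saying which gave which score. The 2 scales are described apart throughout, and a high score is compared only with other high scores.

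H3K4me1 peaks together covered 870.1 Mb, or 32.0% of the 2719.1 Mb spanned by the scaffolds (lowest scaffold 14.1%, median 33.3%, highest 50.6%). The low scale held more of the peaks but only 222.0 Mb, or 25.5% of the covered length. The high scale held 648.1 Mb, or 74.5%. Within the high scale, the widest 23.8% of the peaks made up 50% of its length. No peak of either scale overlapped another peak of the list.

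Low-scale peaks were narrow and high-scale peaks wide. The median width was 914 bases on the low scale (quartiles 482 and 1591) and 3330 bases on the high scale (quartiles 2212 and 4905). Over the scaffolds the median width ran from 783 to 965.5 bases on the low scale and from 2587 to 3594 bases on the high scale, so the 2 ranges did not overlap. All 46493 peaks under 500 bases were on the low scale. The share of high-scale peaks was 37.0% at 1000 to 2000 bases, 72.0% at 2000 to 4000, 88.8% at 4000 to 8000 and 99.7% from 16000 bases upwards.

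**Figure D1:**
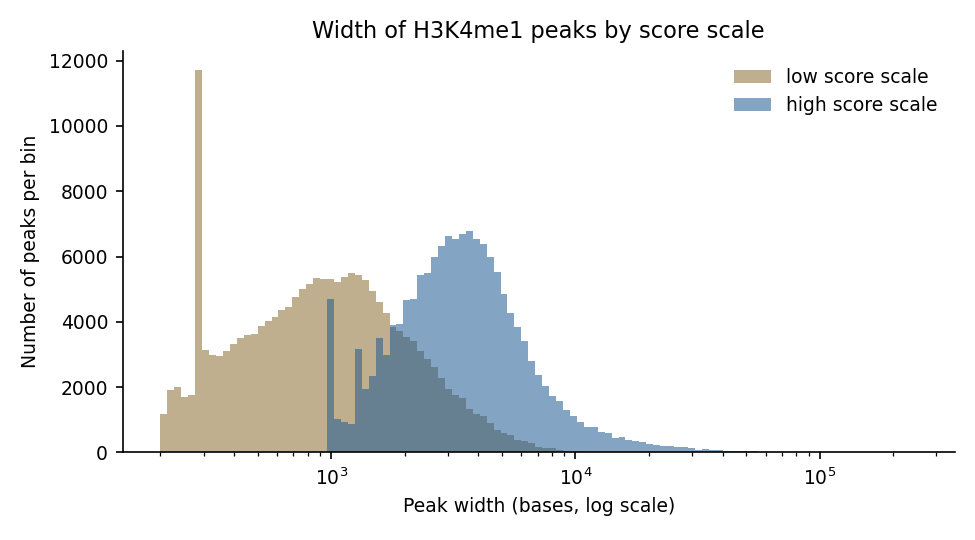
Number of H3K4me1 peaks per bin of width, on a log axis in bases, for the low score scale (brown) and the high score scale (blue). The narrow spikes are the 9697 low-scale peaks of exactly 294 bases and the 4301 high-scale peaks of exactly 1000 bases; the broad maxima lie near the medians of 914 and 3330 bases.

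Each scale had a width that recurred far more often than its neighbours. On the low scale 9697 peaks (5.46%) were exactly 294 bases wide, against 313 peaks at 295 bases, and a further 10000 peaks were narrower, down to 206 bases. On the high scale 4301 peaks (2.87%) were exactly 1000 bases wide. Only 18 high-scale peaks were narrower, at 589 to 985 bases, and all 18 began at the first position of a scaffold or ended at the last position that any deposited file reaches on it. Scores recurred on the low scale as well, with 12231 peaks at 1.53799 and 5431 peaks at 1.4269, while the next commonest low score was held by 102 peaks. Which step of the authors' processing set these values was not given in the sources at hand.

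The widest domains were all on the high scale, which held 7906 of the 8005 peaks of at least 10 kb and all 162 peaks of at least 50 kb. The widest of all, on scaffold_53 from 1214148 to 1434317, ran over 220169 bases with a score of 71.5 and an RRBS level of 67.1% over 502 positions. It held 4 Pol II PS5 peaks and no listed transcription start site. The next, on scaffold_2 from 69731364 to 69931905, ran over 200541 bases with a score of 70.5 and an RRBS level of 65.7% over 636 positions, and contained the listed start site of the gene ENSCPOG00000010091. Peaks of 143391 bases on scaffold_100 (3715393 to 3858784), 137912 bases on scaffold_38 (10765872 to 10903784) and 135316 bases on scaffold_43 (2325541 to 2460857) followed. Their levels were 69.3%, 62.2% and 71.9%. These 5 domains were thus at or above the mean level of high-scale peaks, 61.9%, with scores of 70.5 to 180.5, of which the 3 from 96.5 upwards lay in the highest score decile of the scale, which began at 75.

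The 5 widest low-scale peaks had 18001 to 21339 bases. They lay on scaffold_211 (95876 to 117215), scaffold_396 (158971 to 179920), scaffold_705 (14672 to 33200), scaffold_277 (137929 to 156112) and scaffold_1207 (1665 to 19666). All 5 held Pol II PS5 peaks, between 1 and 8 each, none held a listed start site, and none had an entry in the table of methylation averages. Of these scaffolds, scaffold_277 and scaffold_211 carried more than 100 peaks.

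Neighbouring peaks were close to each other. The median gap to the next peak was 2802 bases (quartiles 1353 and 5690, n = 325376 gaps), the smallest was 2 bases, and 16.4% of gaps were under 1000 bases. Pairs of high-scale peaks had a median gap of 1953 bases and pairs of low-scale peaks 3297 bases, with mixed pairs at 3229 and 3207 bases. Gaps over 50000 bases made up 1.67% of those between low-scale peaks and 0.0717% of those between high-scale peaks.

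**Figure D2:**
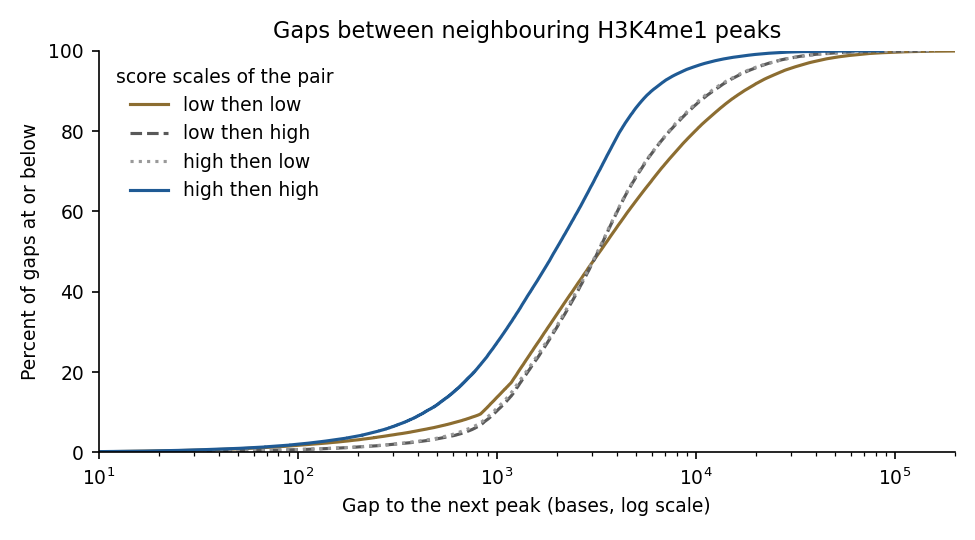
Percent of gaps at or below a given length, on a log axis in bases, for neighbouring H3K4me1 peaks by the score scale of the first and the second peak. The curve for high then high lies to the left, with a median of 1953 bases, and the curve for low then low has the longest tail, with 1.67% of gaps over 50000 bases.

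Gaps between low-scale peaks were not spread smoothly. There were 573 gaps of 750 to 800 bases, 1471 of 850 to 900 bases, 1183 of 1100 to 1150 bases and 1577 of 1200 to 1250 bases, so the number stepped up near 850 and again near 1200 bases. Between high-scale peaks the number per 50 bases stood at 1437 from 750 to 800 bases, 1427 from 850 to 900 bases and 1269 from 1200 to 1250 bases, without such a step. Mixed pairs also stepped up, from 776 gaps at 750 to 800 bases to 1187 at 850 to 900 bases. The shortest gaps between low-scale peaks were again more frequent, with 1056 at 0 to 50 bases. Each 50-base class of low-scale gaps under 850 bases still held fewer than the class of 850 to 900 bases. The cause of these counts was not tested.

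Peaks of 1 scale followed each other along the scaffolds. The next peak was also on the high scale for 61.7% of high-scale peaks, which made up 45.8% of the list, with 43.7% on the lowest scaffold and a scaffold median of 61.0%. For low-scale peaks it was also low in 67.5% (54.8% to 74.3%). Runs of at least 5 peaks of 1 scale held 43.5% of the high-scale and 48.8% of the low-scale peaks. The longest high-scale run had 66 peaks on scaffold_131 from 2111977 to 2622439, and the longest low-scale run had 153 peaks on scaffold_211 from 144643 to 871426. Scores of neighbours were nearly unrelated within a scale, with Spearman's rho of 0.0122 to 0.0688 in all distance classes (834 to 58145 pairs).

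In whole windows of 1 Mb (n = 2447) the number of peaks had a lowest value of 3, a median of 130 and a highest of 211. The 3 windows with the most peaks were the first 1000000 bases of scaffold_154, scaffold_202 and scaffold_164, with 211, 209 and 202 peaks. They differed in make-up, since 75, 20 and 109 of these peaks were on the high scale. The window with the fewest peaks, on scaffold_26 from 12000000 to 13000000, held 3 peaks, all on the low scale. Covered length per window varied more than the count did, from 0.223% through a median of 32.6% to 74.9%. Windows with more of their length covered also had a larger share of high-scale peaks (rho 0.927 over the 2416 windows with at least 20 peaks), a description to which the greater width of high-scale peaks contributes by construction.

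Among the 42 large scaffolds, scaffold_34 stood apart. Its 2065 peaks covered 14.1% of its length and 31.3% of them were on the high scale, both the lowest values of the 42. The median high-scale width was also the lowest there, at 2587 bases, and so was the share of high-scale peaks that overlapped Pol II PS5, at 4.80%. The mean RRBS level of its high-scale peaks was 54.2% (143 peaks), again the lowest. At the other end, scaffold_25 had 50.6% of its length covered and 64.4% of its 3828 peaks on the high scale.

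Scores were weakly related to width in both scales. Spearman's rho was 0.273 on the low scale (scaffolds 0.157 to 0.300) and 0.271 on the high scale (0.237 to 0.366). Peaks share libraries and depth, so these are descriptions over peaks. Peaks of each scale were ranked by score into 10 groups of equal size (deciles). From the lowest to the highest decile, the median width of high-scale peaks went from 2067 to 3991 bases. On the low scale it went from 532 bases to 1255 bases in the eighth decile and stood at 1141 bases in the highest. Much of the high-scale relation lay among narrow peaks, where rho was 0.271 between 1000 and 2000 bases and 0.0525 between 2000 and 4000 bases. On the low scale rho was 0.0183 under 500 bases and 0.153 between 1000 and 2000 bases.

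**Figure D3:**
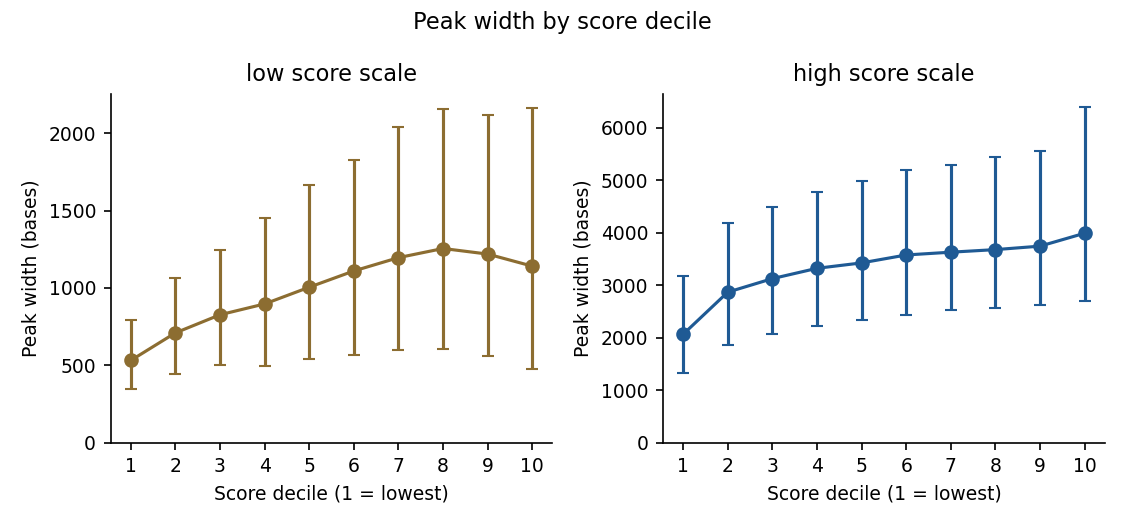
Median peak width in bases by score decile, with bars from the 25th to the 75th percentile of the peaks, for the low (left) and high (right) score scale. High-scale medians go from 2067 to 3991 bases, and low-scale medians peak at 1255 bases in the eighth decile.

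The highest scores belonged to an unusual set of peaks. The 5 highest of the high scale were on scaffold_71 from 314 to 1570 (score 3164), scaffold_351 from 43783 to 45044 (3014), scaffold_927 from 40 to 10214 (2831), scaffold_219 from 494012 to 495273 (2490) and scaffold_1653 from 11090 to 12157 (2237.5). RRBS reads per position in them were 12770, 122780, 472, 83100 and 3468, while the median over high-scale peaks was 20.2. Of the 20 highest, 15 lay on scaffolds with fewer than 100 peaks, 18 of the 19 with RRBS positions had over 100 reads per position, and all 20 overlapped a Pol II PS5 peak. Among all high-scale peaks these shares were 2.41%, 0.228% and 12.2%. The part of this read depth in the scores was not tested.

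The same held in part for the low scale. Its highest score, 14.8, was the peak on scaffold_10 named above, with 11237 RRBS reads per position, and the next were on scaffold_82 (7566823 to 7567151, score 10.9), scaffold_1 (68170294 to 68170883, 10.2), scaffold_17 (1139062 to 1139690, 9.31) and scaffold_35 (21890438 to 21891249, 8.18). These 5 peaks were 328 to 811 bases wide and lay on scaffolds with 1145 to 10243 peaks. RRBS reads per position were 4607 on scaffold_1, 827 on scaffold_17 and 10.5 on scaffold_35, the last over 2 positions. The peak on scaffold_82 had no RRBS position. The median over low-scale peaks was 20.25. Of the 20 highest low-scale scores, only 3 were on scaffolds with fewer than 100 peaks, while 17 overlapped a Pol II PS5 peak. Of the 12 among them with at least 3 RRBS positions, 5 had over 100 reads per position. Among all low-scale peaks these shares were 8.61%, 7.73% and 0.542%. Of the 1000 highest low-scale scores, 38.0% were on scaffolds with fewer than 100 peaks. For the 1000 highest high-scale scores this share was 11.2%.

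RRBS levels per peak came from a deposited table of averages, whose entries did not always have the coordinates of the list. Each of its 99978 entries lay inside exactly 1 peak of the list. All 14268 entries in low-scale peaks had the same start and end as the peak. Of the 85710 entries in high-scale peaks, 13944 (16.3%) did, and the other 71766 were shorter, with a median of 74.4% of the peak's length. The level of a peak was taken as the mean of its entries weighted by their RRBS positions, and at least 3 positions were required, which left 69002 high-scale peaks (46.0%) and 11331 low-scale peaks (6.37%). Peaks with an entry were wider than those without (median 4214 against 2647 bases on the high scale and 1536.5 against 872 on the low scale). The methylation results therefore describe the wider peaks, those with an entry. At least 3 RRBS positions lay in 77.1% of high-scale and 28.8% of low-scale peaks, so many peaks with such positions had no level. Why they had none was not given in the sources at hand.

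High-scale peaks were less methylated than low-scale peaks. The mean RRBS level was 61.9% on the high scale (SD 22.8 over peaks, scaffolds 54.2% to 66.0%) and 75.1% on the low scale (SD 17.4, scaffolds 67.7% to 79.9%). Levels at or under 20% were found in 7.15% of high-scale and 1.03% of low-scale peaks. The difference was as large at equal width of the list peak. Most high-scale entries were shorter than their peak, while low-scale entries were whole peaks, and the part of this in the difference was not tested. At 1000 to 2000 bases the high-scale mean was 60.0% and the low-scale mean 74.4%, a difference of -14.4 percentage points, and at 2000 to 4000 and 4000 to 8000 bases the differences were -14.3 and -15.3. The high scale was the lower one in 40 of 40, 39 of 39 and 12 of 12 scaffolds with at least 20 measured peaks of each scale. At 8000 to 16000 bases, with 31 low-scale peaks, the difference was -5.10.

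Within each scale, a higher H3K4me1 score went with a lower RRBS level. On the high scale rho was -0.223 over 69002 peaks and below 0 in 41 of 42 scaffolds, the exception being scaffold_34 with 0.0198 over 143 peaks. On the low scale rho was -0.119 over 11331 peaks and below 0 in 39 of 42 scaffolds, the exceptions being scaffold_17, scaffold_45 and scaffold_30 with 0.0313, 0.0270 and 0.00577. For RRBS levels, score deciles were ranked again among the measured peaks of each scale, and the highest high-scale decile then began at 80.5. The mean level of high-scale peaks was 69.8% in the lowest of these deciles (SD 19.6, 6901 peaks) and 49.7% in the highest (SD 24.8, 6900 peaks). This difference of -20.0 points ranged from -29.0 to -15.3 over the 41 scaffolds with at least 20 measured peaks in both deciles. On the low scale the means were 76.6% and 69.0%, a difference of -7.62 points, negative in 10 of 11 such scaffolds.

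**Figure D4:**
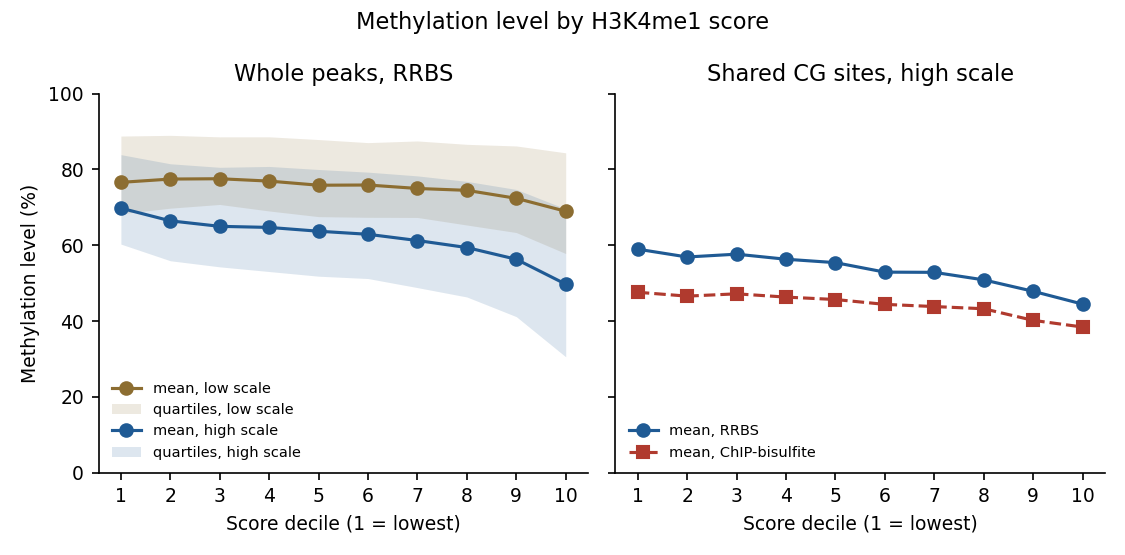
Mean methylation level in percent by H3K4me1 score decile, ranked among the peaks measured in each panel. The left panel shows RRBS levels per peak of both scales, with the quartiles over peaks shaded. On the high scale these levels came mostly from entries shorter than the peak. The right panel shows high-scale peaks at CG sites measured in both bisulfite assays. High-scale means go from 69.8% to 49.7% on the left, and on the right from 59.0% to 44.5% in RRBS and from 47.6% to 38.4% in ChIP-bisulfite.

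The spread among peaks grew with the score, and both ends of the methylation range stayed occupied. In the lowest high-scale decile 3.04% of peaks were at or under 20% and 35.5% at or over 80%, and in the highest decile 15.7% and 10.3%. Of the 5007 peaks in the highest decile with at least 10 RRBS positions, 221 had a level under 5% and 8 a level over 95%. The 221 peaks of low level had a median of 66.7 C positions of the genome per kilobase, 49.8% of them lay over a listed start site and 41.6% overlapped Pol II PS5. For the 8 peaks of high level these values were 35.7, 25% and 12.5%. Among all 6900 peaks of the decile, with at least 3 positions, the median was 30.7 and 30.4% overlapped Pol II PS5. Of these 6900, 34.1% had a listed start site within 1000 bases, a wider measure than lying over one. The 3 lowest, all at 0%, were on scaffold_12 from 5238236 to 5240844 (score 84, 21 positions), scaffold_124 from 3393951 to 3398835 (score 100, 10 positions) and scaffold_135 from 856649 to 872379 (score 81.5, 11 positions). With 385, 252 and 196 RRBS reads, a count of 0 methylated calls allows levels of up to 0.779%, 1.19% and 1.53%, for counting error only. Each of the 3 contained at least 1 listed start site, and their shared CG sites were at 0% in ChIP-bisulfite as well. The 3 highest were on scaffold_25 from 19818107 to 19821960 (100% over 10 positions), scaffold_6 from 31578582 to 31580390 (98.2% over 10 positions) and scaffold_286 from 358125 to 360678 (96.8% over 19 positions). None of these 3 overlapped a Pol II PS5 peak, and only the last contained a listed start site. Their few shared CG sites were not all high in ChIP-bisulfite, with 0% at the 1 site of the peak on scaffold_25 and a mean of 50% at the 2 sites of the peak on scaffold_286, where RRBS gave 100% and 95.5%.

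On the high scale several features moved with score and level together. The table gives the number of C positions of the genome in each entry, without naming their sequence context. Per kilobase of entry, measured high-scale peaks had a median of 19.6 such positions in their lowest score decile and 30.7 in the highest. This density had a rho of -0.282 with level and of 0.161 with score. In 3 equal groups by density the rho of score with level was -0.147, -0.195 and -0.234, from the sparsest to the densest. In 3 equal groups by width it was -0.275, -0.224 and -0.151, from the narrowest to the widest. The rho was also below 0 far from start sites, at -0.189 over the 39834 peaks more than 20000 bases from every listed start site, and at -0.208 over the 57459 peaks without Pol II PS5. Over start sites it was -0.112 (8890 peaks). For low-scale peaks the density of C positions had a rho of 0.00746 with level and of -0.0769 with score, and width had a rho of 0.0575 with level. The part of each feature in the relation was not tested further.

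Methylation on the precipitated DNA itself was read from single CG sites measured in both assays, all of which lay in peaks of the list. High-scale peaks held 159729 of these 167387 sites. Over the 18278 high-scale peaks with at least 3 shared sites, the ChIP-bisulfite level had a rho of -0.0926 with the score, below 0 in 39 of 41 scaffolds, and the RRBS level of the same sites had a rho of -0.160. Score deciles were ranked once more among these peaks, the highest from 91.5 upwards. From the lowest to the highest the mean ChIP-bisulfite level went from 47.6% to 38.4% (SD 28.9 in the lowest), and the RRBS level of the same sites from 59.0% to 44.5%. The ChIP-bisulfite level was lower than RRBS by -11.4 points in the lowest decile and by -6.04 in the highest. Only 463 low-scale peaks had 3 such sites, with a rho of -0.136 between score and ChIP-bisulfite level and a mean ChIP-bisulfite level of 67.5% and a mean RRBS level of 76.6%.

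Levels of nearby peaks were only loosely alike. Between measured neighbours less than 1000 bases apart rho was 0.193 (6908 pairs), and beyond 50000 bases it was 0.0386 (9077 pairs), with median absolute differences of 16.6 and 22.5 points. Adjacent entries inside 1 wide peak, with a median gap of 2088 bases, had a rho of 0.127 and a median difference of 17.6 points (11556 pairs). Separate peaks 2000 to 5000 bases apart had 0.0983 and 16.3 points (14964 pairs). Low-scale peaks next to a high-scale peak were highly methylated. Their mean was 79.7% (816 peaks) within 1000 bases of a high-scale peak, 74.1% at 5000 to 20000 bases and 63.6% (446 peaks) from 50000 bases on.

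The deposited site table gave 19847 transcription start sites, where transcripts begin, for 19244 genes. It lists only transcripts with a shared CG site nearby, so start sites without one are not among them. Shared sites lie in H3K4me1 peaks, mostly high-scale ones, so a listed start site has such a peak in its neighbourhood by the way the list was made. A high-scale peak covered a listed start site in 11096 cases (7.40% of high-scale peaks) and a low-scale peak in 809 (0.455%). High-scale peaks over a start site had a median width of 6002 bases and a median score of 63. Those more than 100000 bases from any listed start site had 2988 bases and 56.5. The mean RRBS level was 47.2% (SD 25.6, 8890 peaks) over start sites, 54.5% up to 1000 bases away, 60.3% over 1000 and up to 5000 bases away and 64.5% (SD 20.3) beyond 100000 bases. Low-scale peaks showed little of this, with 76.0% over start sites (163 peaks) and 73.4% beyond 100000 bases.

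Most high-scale peaks were far from a listed start site, and whether they lay inside a gene was not known. Of them, 35.4% lay over 20000 and up to 100000 bases and 27.8% more than 100000 bases from the nearest listed start site, and a further 1.77% lay on scaffolds with none. For the low scale these shares were 31.4%, 40.6% and 10.6%.

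This condition sets part of the coverage of the start sites, which is given as a description of the listed ones. In all, 13445 of 19847 (67.7%) lay inside an H3K4me1 peak, 12604 of them in a high-scale one. At 10000 bases upstream and downstream of these start sites, peaks of either scale covered 49.1% and 51.8% of the positions. Start sites of transcripts with a Pol II PS5 score in the deposited table were inside a peak in 75.1% of 7375 cases, and those without in 63.4% of 12472. Around the start sites with a Pol II score, coverage by peaks of either scale was 81.6% at 1000 bases upstream, 75.1% at the start site and 80.2% at 500 bases downstream. Start sites without a Pol II score showed no such notch, and there the coverage by peaks of either scale was 66.1%, 63.4% and 61.8% at the same 3 positions. Low-scale peaks covered 2.92% of the start sites with a Pol II score, against 6.59% of the positions 10000 bases upstream of them. For start sites without a score these values were 5.02% and 6.04%. Peaks of the list do not overlap, so a position under a high-scale peak cannot hold a low-scale one. High-scale peaks covered 72.1% of the start sites with a Pol II score and 41.6% of the positions 10000 bases upstream. Without a score they covered 58.4% and 43.65%. The part of this exclusion in the low-scale values was not tested.

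**Figure D5:**
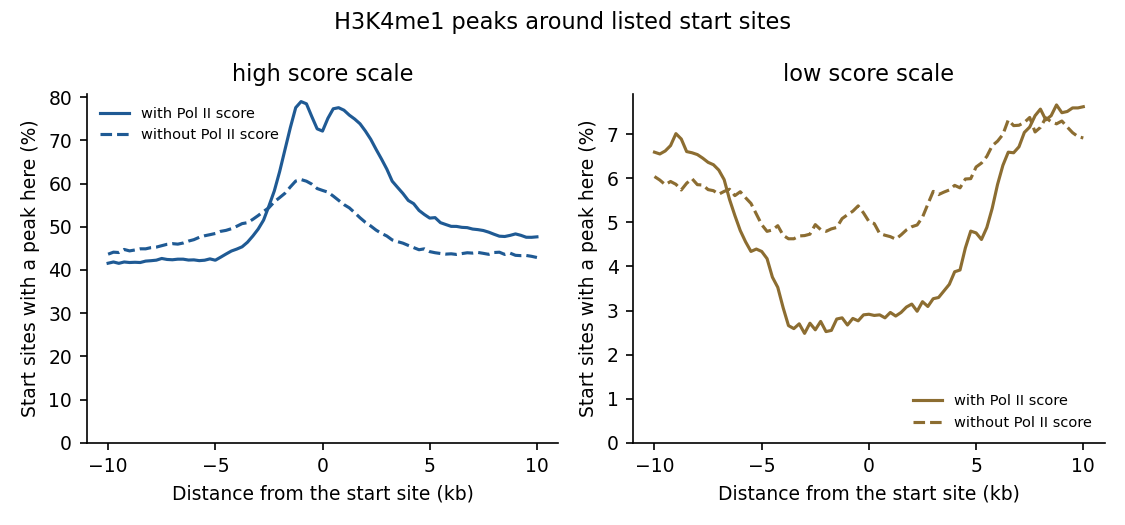
Percent of listed start sites with an H3K4me1 peak at a given distance in kb, upstream to the left, for start sites with (solid) and without (dashed) a Pol II score; the left panel shows high-scale peaks, the right panel low-scale peaks on its own axis from 0. With a Pol II score the high-scale curve has 2 maxima around a notch at the start site, and the low-scale curve is at its lowest within a few kb. Peaks of the 2 scales do not overlap, so low-scale peaks can only lie where high-scale ones do not.

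Overlap with Pol II PS5 peaks by at least 1 base was found for 12.2% of high-scale peaks (18283, exact 95% binomial interval 12.0% to 12.4%) and 7.73% of low-scale peaks (13737, 7.60% to 7.85%). These intervals cover counting error only, and the order of the scales depended on width, as given further on. On the 238 scaffolds with at least 100 peaks the shares were 11.3% and 5.07%, and over the 42 large scaffolds the medians were 10.3% and 3.76%. Small scaffolds differed, since 69.3% of the 4267 peaks on scaffolds with 1 to 9 peaks overlapped Pol II PS5, and RRBS had 337 reads per position there against 23.8 on the 42 large ones. By score deciles over all peaks of a scale, the high-scale share went from 7.88% in the lowest to 24.9% in the highest. On the low scale it went from 5.05% to 21.3%, and 20.2% of the highest low-scale decile lay on scaffolds with fewer than 100 peaks.

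Wide peaks overlap more often by their length alone, and high-scale peaks were the wider ones, so shares were also taken within width classes. At equal width the order of the scales was the opposite of that over all peaks. The low-scale share was 6.85% against 4.84% on the high scale at 1000 to 2000 bases, 13.9% against 7.70% at 2000 to 4000, 37.0% against 16.7% at 4000 to 8000 and 80.6% against 31.9% at 8000 to 16000 bases. These shares include the small scaffolds, whose part in them was not tested. Score and overlap were then compared within the high scale. Among high-scale peaks of 2000 to 4000 bases, 6.69% of those in the lowest of 5 equal score groups overlapped Pol II PS5 (interval 6.25% to 7.15%) and 11.6% of those in the highest (11.1% to 12.2%). At 4000 to 8000 bases the shares were 17.2% and 23.7%. At 8000 to 16000 bases they were 35.0% (31.1% to 39.1%) and 37.3% (35.6% to 39.0%), whose intervals overlapped. High-scale peaks with a Pol II PS5 peak had a mean RRBS level of 52.0% (SD 25.3, 11543 peaks), against 63.9% (SD 21.7, 57459 peaks) for those without.

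The mitochondrial sequence carried 3 peaks, of which 2 were low-scale, with scores of 2.64 and 1.58, and 1 was high-scale, from 15138 to 16633 with a score of 122.5. Mitochondrial DNA holds no histones, so these 3 peaks are listed apart from the domains above. They were kept in all counts.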

How the data were processed

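The deposited H3K4me1 list gives a start, an end and the authors' score for each peak, and the Pol II PS5 list likewise. Scores were used only to rank peaks within 1 scale, split at 40. Deposited percent methylation levels were taken per peak (RRBS only) from the table of averages and per CG site from the site table. RRBS reads per C position are counts deposited by the authors, from 10 reads upwards. RRBS reads per peak were treated as estimated counts, since some values deposited by the authors were not whole. ChIP-bisulfite columns of the table of averages are displaced by lines and were not used. Per the submitters' processing notes, which give no roles, the ChIP-seq libraries were handled with HOMER 4.6, MACS2, SAMtools 1.1 and Bowtie2 2.2.3, the ChIP-bisulfite libraries with methylKit and Bismark 0.12.5 among others, and RRBS with methylKit and BSMAP 2.74. Positions are printed as the files give them, since the build is not given in the sources used here.

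Table entries and CG sites were placed in list peaks by coordinates, and start site positions were taken as the site table lists them. Distances run from the nearer peak edge. Relations are Spearman's rho over peaks (Python 3.11.15, pandas 2.3.3, scipy 1.17.1), without p-values. Values per scaffold needed at least 20 peaks. The placing of positions in peaks, overlap counts, distances to start sites, ranking into deciles and Spearman's rho were tested on simulated data. Distances from low-scale to high-scale peaks and counts of RRBS positions and reads per list peak were not tested in this way. Peaks named were the 5 widest and 5 highest scored of each scale, the peaks at the gap between the scales, the 3 lowest and 3 highest RRBS levels of the highest high-scale decile with at least 10 positions, and the 3 windows with the most peaks. The scaffolds, the emptiest window and the mitochondrial peaks were chosen after their values were seen. Peaks at start sites of marker genes could not be looked up, since identifiers could not be matched to symbols. Members, lists and rules were chosen with earlier results of these data known. RRBS digestion controls were not analysed here.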

Additional observations from a re-analysis of the deposited data

How the results depend on the processing

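No paired analysis was possible because each deposited column pools the 3 animals, and for the same reason no animal could be left out. Of 44 alternatives to 13 results, 3 left out no peak and could not move the value. The yardstick was the SD of the value over scaffolds, which is narrower than the range from lowest to highest scaffold given above. For shares it was the exact binomial interval, which covers counting error only, while each alternative changed the definition or the set of peaks. Of the other 41 alternatives, 21 moved the value by less than this yardstick and 20 by more, and none changed the sign of a relation. For the low-scale relation with ChIP-bisulfite level the high-scale SD was used, since no scaffold had enough low-scale peaks. Peaks above the median score were wider, at 1180.5 bases on the low and 3724 on the high scale. The median gap was 6707 bases among low-scale peaks alone and 3929.5 among high-scale peaks alone. The rho of score with width was 0.242 on the high scale under 10000 bases. The following were chosen after seeing the data: without the commonest width it was 0.232 on the high and 0.315 on the low scale, and without the 2 commonest scores 0.244 on the low scale. The high-scale rho of score with RRBS level was -0.160 over shared CG sites and, in an alternative added after seeing the data, -0.162 over the 13080 peaks with a table entry of the same coordinates. The low-scale rho with ChIP-bisulfite level, -0.136 over 463 peaks, was -0.0706 with at least 1 shared site and -0.0356 with at least 5 (51 peaks). Overlap with Pol II PS5 on the high and low scale was 11.4% and 6.90% by the centre of the Pol II peak, 6.92% and 4.31% with Pol II peaks above their median score, and 11.3% and 5.07% on scaffolds with at least 100 peaks (added after seeing the data). Among peaks with a table entry, 6.30% of high-scale and 1.46% of low-scale peaks had their centre within 1000 bases of a start site in the table of averages, against 15.8% and 2.60% by peak edges and the site table. Depth was known for RRBS only, at a median of 17 reads per position, and a level from 3 positions can rest on as few as 30 reads.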
